A study of Rattus norvegicus with 6 samples.

Results

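The mevalonate and sterol pathway builds cholesterol from acetyl-CoA by way of isoprenoid units, squalene and lanosterol. The transcription factor SREBP2 turns on its genes when sterol in the endoplasmic reticulum is low. SCAP escorts SREBP2 to the Golgi for activation, INSIG proteins hold it back, and the liver makes, takes up, stores, secretes and breaks down much of the body's cholesterol. The 31 genes described here were chosen by name from this pathway: 19 enzymes of synthesis, 4 genes of SREBP2 control, 4 of intracellular transport and storage, 2 of receptor turnover and high-density lipoprotein uptake, and 2 of export and plasma esterification. The choice was made with earlier results of these data known. All 31 had at least 1 probe named through a RefSeq accession, out of 15645 gene symbols on the array, and all 31 passed the filter on dim probes. Every chosen probe was well above background on all 6 arrays.

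Total RNA of whole liver from 6 male Sprague-Dawley rats of the Crl:CD(SD) stock was hybridised to 1-colour Cy3 arrays, 1 animal per array. The vehicle group (n = 3) received corn oil, and the other group (n = 3) received TBBC, a phenolic antioxidant built from tert-butylated m-cresol rings joined by sulfur; the daily dose was 300 mg/kg. All rats were bought at 5 weeks of age and ate a basal diet. The dosing time is given as 9 weeks by the treatment protocol and as 28 days by the series design, and the age at sampling follows from neither with certainty. There was 1 dose, 1 time and 1 sex, and the route of dosing and the feeding state at sampling are not given in the sources used here.

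Each array carried 61537 probes other than controls, and 36919 to 39386 of them were well above background. The 3 vehicle arrays shared 1 slide and 1 scan and the 3 TBBC arrays another, so slide and treatment cannot be told apart. Values below are log2 of the processed signal minus the array's 75th percentile of it, so 0 is the 75th percentile. Differences are TBBC minus vehicle with limma's standard error, 3 arrays per group, and adjusted p-values are Benjamini-Hochberg values from limma over all 29326 features. A gene is said to have risen or fallen only at an adjusted p under 0.05, which 3.08% of all features met, 1.68% as higher and 1.4% as lower with TBBC. Those 902 features were 54.5% higher ones (70.9% with median centring, 81.5% with scaling on spike-in controls). Leaving out 1 array gave 104 to 365 features. Hepatocyte markers were all detected (8 of 8), and their summed signal was 5066 to 5919 times the 75th percentile on vehicle arrays and 4570 to 4807 on TBBC arrays. Biliary markers (6 of 8 on the array) summed to 1.67 to 1.84 with vehicle and 3.18 to 4.61 with TBBC, and among them Epcam, an adhesion molecule of bile duct and progenitor cells, rose by 1.83 ± 0.21. In the stellate list Pdgfrb, a growth factor receptor, fell by 0.73 ± 0.14. The summed ranges of Kupffer and myeloid, stellate, endothelial, adipocyte and red cell markers overlapped between groups. Lymphocyte markers summed to 2.80 to 3.06 and 1.83 to 2.69, with Cd3e and Klrb1 not well above background on any array. In the adipocyte list Adipoq and Lep were likewise undetected. The part of these differences in the results below was not tested. In whole tissue, fewer cells of a type and less RNA per cell cannot be told apart.

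Transcripts of cholesterol synthesis were higher with TBBC along nearly the whole pathway, while the genes of control, transport, uptake and export did not pass the test. Of the 19 enzymes, 10 rose, 0 fell and 9 did not pass (limma; 16 higher and 0 lower at an unadjusted p under 0.05), against the 1.68% of all features that rose. All 19 differences were above 0, as were 42.4% of those of all features. Their median log2 difference was 1.18, and that of all features was -0.06. In 17 of the 19 every TBBC array lay above every vehicle array, a pattern shown by 12.3% of all features. These shares describe genes chosen with earlier results of these data known and are not a test of the list. Of the 12 other members, 0 rose and 0 fell (limma; 2 higher and 2 lower at an unadjusted p under 0.05), and their median was -0.21. Fewer members passed when any 1 array was left out: with vehicle replicate 1 left out, 0 members passed in limma (19 at an unadjusted p under 0.05), and the same count came from leaving out TBBC replicate 2 (19) or TBBC replicate 3 (20). Leaving out vehicle replicate 2 or vehicle replicate 3 gave 2, and leaving out TBBC replicate 1 gave 7. The median of the 19 enzymes was 0.95 to 1.44 in those fits.

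**Figure D1:**
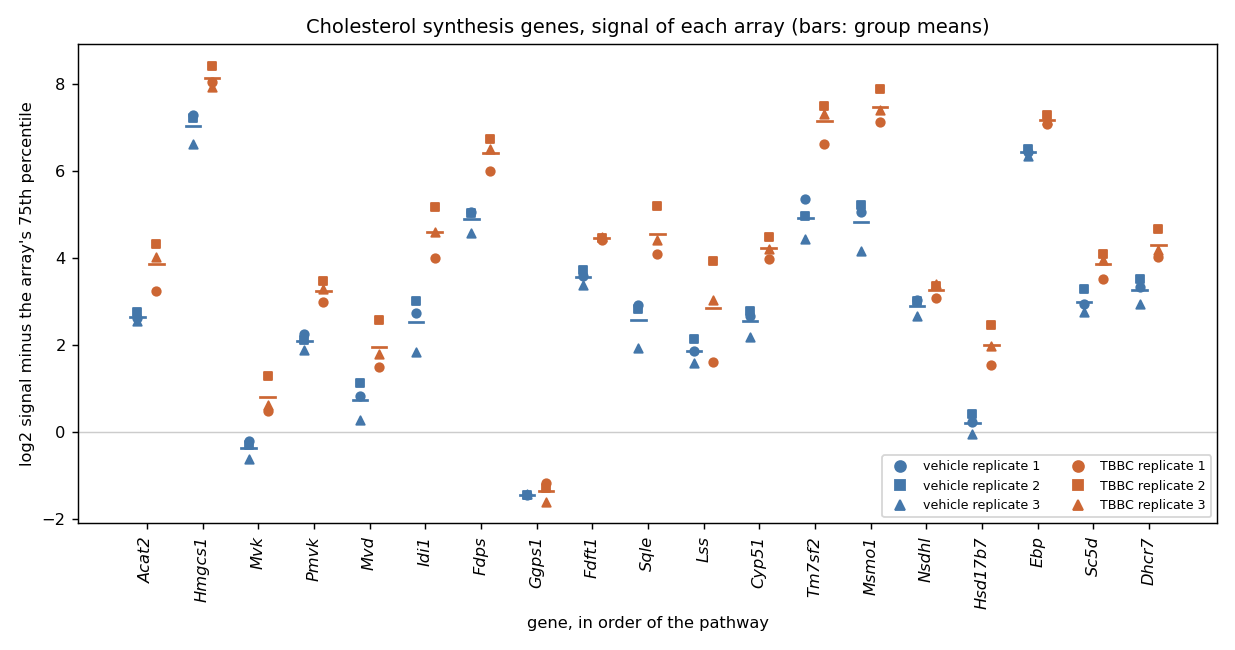
Log2 signal minus the array's 75th percentile for the 19 synthesis genes in pathway order, 1 point per array (3 vehicle, 3 TBBC) with the group means as bars. TBBC points lie above vehicle points for 17 genes; Ggps1 and Lss overlap.

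The first enzymes make the 5-carbon isoprenoid units. Acat2, the cytosolic thiolase that joins acetyl-CoA units, read 2.63, 2.76 and 2.55 in vehicle livers 1 to 3 and 3.25, 4.33 and 4.02 in TBBC livers 1 to 3, the order used throughout. Hmgcs1, the HMG-CoA synthase, read 7.28, 7.21 and 6.62 with vehicle and 8.05, 8.42 and 7.93 with TBBC. For both genes all TBBC arrays were above all vehicle arrays, but neither passed: Acat2 differed by 1.22 ± 0.27 (adjusted p = 0.0705) and Hmgcs1 by 1.095 ± 0.22 (adjusted p = 0.0559). Mvk, the mevalonate kinase, and Mvd, which decarboxylates the diphosphate, behaved alike in size, at 1.18 ± 0.23 (adjusted p = 0.0536) and 1.21 ± 0.33 (adjusted p = 0.104). Pmvk, the phosphomevalonate kinase between them, had less scatter, with 2.26, 2.12 and 1.88 in vehicle and 3.00, 3.47 and 3.29 in TBBC livers. It rose by 1.17 ± 0.17 (adjusted p = 0.0269), although its difference was no larger than that of its neighbours.

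Idi1, which turns 1 isoprenoid unit into its reactive isomer, had the widest range of this block. Vehicle arrays gave 2.74, 3.01 and 1.84, vehicle replicate 3 being the low one, and TBBC arrays gave 4.01, 5.18 and 4.60. The groups did not overlap and Idi1 rose by 2.07 ± 0.39, which is 4.19-fold (adjusted p = 0.0483); its 3 probes gave 2.01 to 2.23. Fdps, the farnesyl diphosphate synthase at which sterols and other isoprenoids part, went from 5.05, 5.05 and 4.57 to 6.01, 6.74 and 6.51. It rose by 1.53 ± 0.23 (adjusted p = 0.0287), and its 3 probes agreed closely at 1.53 to 1.61.

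Ggps1, which extends farnesyl diphosphate for protein prenylation instead of sterols, had the smallest difference of the 19 enzymes. It read -1.45, -1.43 and -1.42 with vehicle and -1.18, -1.27 and -1.59 with TBBC, and the groups overlapped. Its difference was 0.08 ± 0.14 (adjusted p = 0.736), with a 95% interval of -0.24 to 0.41 that overlapped those of Nsdhl and Lss, and its 2 probes gave -0.20 and 0.08. The sign turned in 3 of 20 alternative settings, some of which cannot change a difference.

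Squalene and lanosterol come next. Fdft1, the squalene synthase and the first step committed to sterols, read 3.60, 3.73 and 3.38 in vehicle livers and 4.41, 4.46 and 4.49 in TBBC livers, a tight rise of 0.88 ± 0.12 (adjusted p = 0.0261). A dimmer second probe of Fdft1 gave 1.60. Sqle, the squalene epoxidase, read 2.93, 2.84 and 1.94 and 4.09, 5.19 and 4.41; again vehicle replicate 3 was lowest and TBBC replicate 2 highest. Sqle rose by 1.99 ± 0.37, 3.98-fold (adjusted p = 0.0443). Lss, which closes the rings to lanosterol, was the only enzyme besides Ggps1 with overlapping groups. Vehicle arrays gave 1.86, 2.14 and 1.58 and TBBC arrays 1.61, 3.94 and 3.05, so TBBC replicate 1 lay among the vehicle values while the other TBBC arrays were above them. The difference of 1.01 ± 0.55 did not pass (adjusted p = 0.319). Without TBBC replicate 1 it was 1.63 (adjusted p = 0.0802), and without TBBC replicate 2 it was 0.47. Both Lss probes behaved alike, at 1.01 to 1.04.

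The steps from lanosterol to cholesterol held the 2 largest differences among the members, those of Msmo1 and Tm7sf2. Msmo1, the sterol methyl oxidase, gave 5.07, 5.22 and 4.17 with vehicle and 7.14, 7.90 and 7.41 with TBBC. It rose by 2.66 ± 0.32, 6.32-fold (adjusted p = 0.0184). Tm7sf2, a sterol delta-14 reductase, gave 5.35, 4.98 and 4.43 and 6.62, 7.49 and 7.32 and rose by 2.22 ± 0.31 (adjusted p = 0.0256). These are the enzymes right after the demethylase Cyp51, which gave 2.67, 2.78 and 2.19 and 3.98, 4.48 and 4.21 and rose by 1.68 ± 0.20 (adjusted p = 0.0186). Hsd17b7, the keto reductase of the demethylation complex, gave 0.25, 0.43 and -0.03 and 1.54, 2.45 and 1.99 and rose by 1.78 ± 0.25 (adjusted p = 0.0256). For all of these 4 genes the lowest TBBC array was over 1 log2 unit above the highest vehicle array.

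Nsdhl, the dehydrogenase that works in the same complex as Msmo1 and Hsd17b7, differed far less. It read 3.04, 3.01 and 2.68 with vehicle and 3.07, 3.37 and 3.40 with TBBC, so that TBBC replicate 1 barely cleared the vehicle range. The difference was 0.37 ± 0.15 (adjusted p = 0.219), and its 95% interval of -0.001 to 0.74 ended below the interval of Msmo1, 1.89 to 3.43. Differences of separate probes can be compressed to different degrees, and the difference between the genes was not tested. Ebp, the sterol isomerase, had values of 6.43, 6.51 and 6.34 and 7.08, 7.29 and 7.17 and rose by 0.75 ± 0.11 (adjusted p = 0.0296), a small but even change. Sc5d, the desaturase, and Dhcr7, the reductase of the last step, had non-overlapping groups and did not pass, at 0.87 ± 0.21 (adjusted p = 0.0798) and 1.02 ± 0.22 (adjusted p = 0.0637). Of the 11 enzymes with 2 or more retained probes, 10 had probes of 1 sign, the other being Ggps1.

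**Figure D2:**
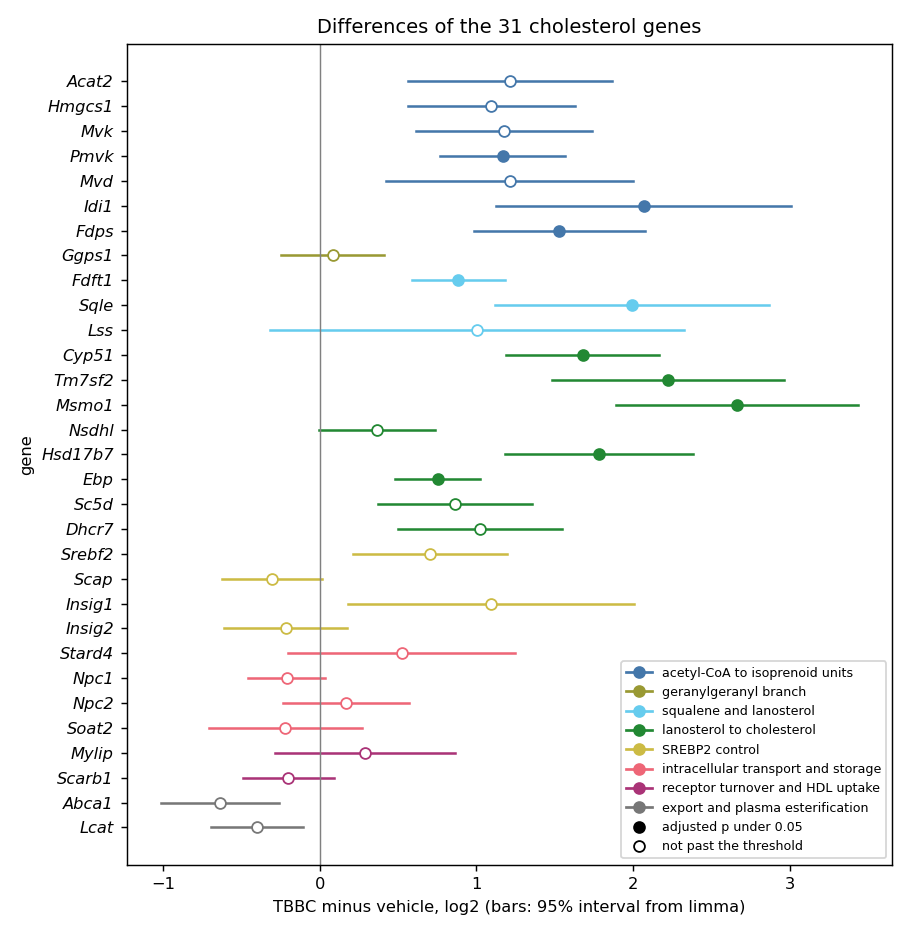
TBBC minus vehicle (log2) for the 31 genes with limma's 95% intervals, coloured by step; filled points passed at an adjusted p under 0.05. The 10 filled points are all enzymes of synthesis, and Abca1 and Lcat lie lowest.

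Within each group the enzymes tended to be high or low on the same arrays. Among the vehicle arrays, replicate 3 was the lowest for 18 of 19 enzymes, against 40.9% of all features. Among the TBBC arrays, replicate 1 was the lowest for 17 of 19 (35.4% of all features) and replicate 2 the highest for 16 of 19 (38.5% of all features). The median deviation of the enzymes from their group mean was -0.28 for vehicle replicate 3, -0.35 for TBBC replicate 1 and 0.35 for TBBC replicate 2. Over all features these medians were -0.03, -0.01 and 0.02. The median SD of an enzyme was 0.27 in vehicle and 0.37 in TBBC livers, compared with 0.19 and 0.16 over all features. Other lists shared part of this order. Of 8 genes of SREBP processing, TBBC replicate 1 was the lowest for 8 and TBBC replicate 2 the highest for 6, but vehicle replicate 3 the lowest for 1. Of 6 electron partners and other sterol enzymes, vehicle replicate 3 was the lowest for 4, TBBC replicate 1 the lowest for 3 and TBBC replicate 2 the highest for 5. Ggps1 had another order on its chosen probe: vehicle replicate 3 was its highest vehicle array and TBBC replicate 1 its highest TBBC array. Its vehicle values there were nearly equal, at -1.45, -1.43 and -1.42. On its second probe vehicle replicate 3 was the lowest vehicle array, at -1.87, and TBBC replicate 1 again the highest TBBC array. These genes share arrays and RNA, so this is a description of 6 animals, without a test.

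**Figure D3:**
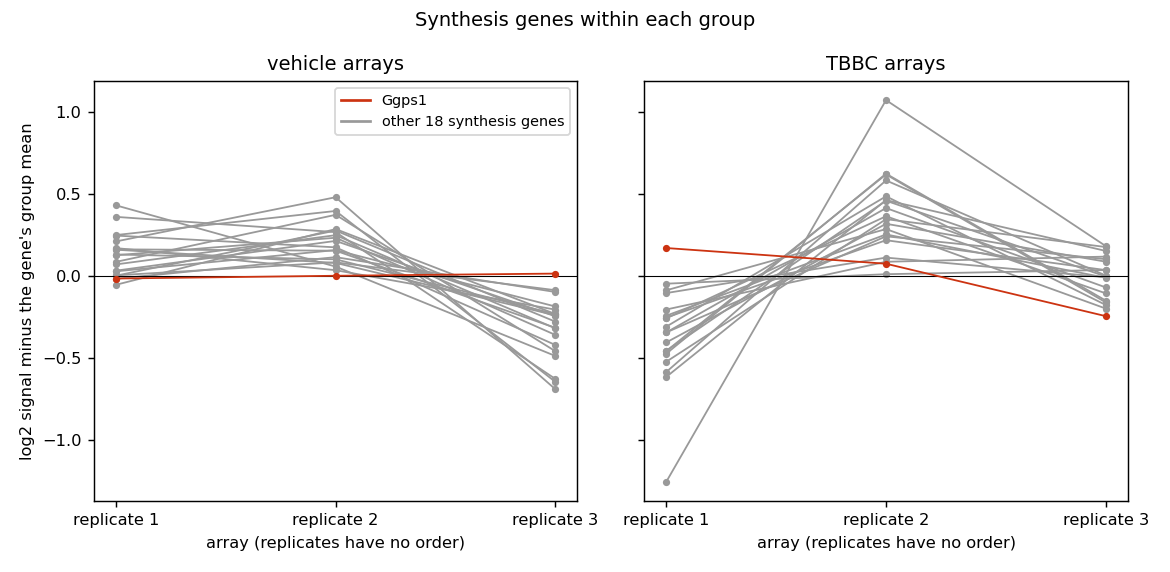
Log2 signal of each synthesis gene minus its own group mean, by array, vehicle on the left and TBBC on the right; lines join the points of 1 gene. Vehicle replicate 3 lies below 0 for 18 genes and TBBC replicate 2 is the highest array for 16; Ggps1 is drawn in red.

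Members that rose can be set against the 250 bases before their start, where SREBP2 and its partner NF-Y, which binds the CCAAT box, act at several genes of this pathway. RefSeq promoter windows (build GRCr8) were matched for 25 of the 31 genes, 16 of them enzymes. The SREBP element TCACNCCAC, searched on both strands, was in 0 of 25 windows and in 0.974% of all 33469 windows. Without its last base, as TCACNCCA, it was in those of Msmo1 and Srebf2 and in 3.24% of all windows. CCAAT on either strand was in 13 of 16 enzyme windows (81.2%), in 6 of the 9 other members (66.7%), in 35.7% of the windows of named genes tested and in 34.0% of all. At least 2 copies were in 8 of 16 enzyme windows (50%) and 12.2% of those of named genes tested. The GC box GGGCGG, a site of SP1, was in 13 of 16 (81.2%) and in 54.5% of windows of named genes tested. TCACNCCA lies within TCACNCCAC, and its last letters, CCA, can also begin a CCAAT box. The looser element, the CCAAT box and the GC box were chosen after the values were seen, and a match is a description and not a site. The windows of the 5 risers with the largest differences among those with both a window and a CCAAT box, and of Srebf2, are printed 5′ to 3′ on the gene's strand, ending at the base before the start, with CCAAT (or ATTGG) and TCACNCCA in capitals.
Msmo1, chr16:29746863-29747112, plus strand: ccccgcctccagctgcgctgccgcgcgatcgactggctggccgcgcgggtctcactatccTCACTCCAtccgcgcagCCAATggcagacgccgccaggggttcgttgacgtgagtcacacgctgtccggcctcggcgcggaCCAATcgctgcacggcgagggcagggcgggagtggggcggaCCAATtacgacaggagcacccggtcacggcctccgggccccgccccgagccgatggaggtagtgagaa
Tm7sf2, chr1:212789542-212789791, minus strand: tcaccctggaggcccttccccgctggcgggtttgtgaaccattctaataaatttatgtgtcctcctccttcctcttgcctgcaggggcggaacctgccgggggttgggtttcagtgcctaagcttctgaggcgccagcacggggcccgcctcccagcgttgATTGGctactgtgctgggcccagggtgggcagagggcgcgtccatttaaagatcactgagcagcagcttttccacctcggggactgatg
Idi1, chr17:66547525-66547774, minus strand: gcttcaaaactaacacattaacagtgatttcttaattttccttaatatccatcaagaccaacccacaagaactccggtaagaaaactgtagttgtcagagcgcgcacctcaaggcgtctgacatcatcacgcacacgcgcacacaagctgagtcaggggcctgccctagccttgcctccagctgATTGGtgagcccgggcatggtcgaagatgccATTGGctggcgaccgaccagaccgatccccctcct
Hsd17b7, chr13:84722755-84723004, minus strand: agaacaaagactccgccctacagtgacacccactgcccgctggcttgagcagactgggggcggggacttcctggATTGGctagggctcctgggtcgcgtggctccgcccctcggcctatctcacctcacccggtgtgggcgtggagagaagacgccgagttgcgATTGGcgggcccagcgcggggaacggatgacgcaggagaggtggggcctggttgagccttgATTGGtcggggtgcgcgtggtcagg
Fdps, chr2:176804817-176805066, minus strand: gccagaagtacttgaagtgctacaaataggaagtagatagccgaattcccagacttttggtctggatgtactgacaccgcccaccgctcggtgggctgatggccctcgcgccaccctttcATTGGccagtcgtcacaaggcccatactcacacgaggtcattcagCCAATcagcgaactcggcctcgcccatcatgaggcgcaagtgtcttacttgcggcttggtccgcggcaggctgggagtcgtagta
Srebf2, chr7:115543057-115543306, plus strand: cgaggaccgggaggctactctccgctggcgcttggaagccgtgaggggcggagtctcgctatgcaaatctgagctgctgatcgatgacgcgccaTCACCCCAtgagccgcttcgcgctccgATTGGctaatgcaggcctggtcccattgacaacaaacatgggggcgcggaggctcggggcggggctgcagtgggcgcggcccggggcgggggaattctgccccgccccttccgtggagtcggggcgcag

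In these windows Msmo1 held 3 CCAAT boxes between 173 and 64 bases before the start, with the SREBP-like match farther upstream, at 190 to 183 bases. Hsd17b7 held 3, Idi1 and Fdps held 2 each, and Tm7sf2 held 1. In Srebf2 the SREBP-like match was 156 to 149 and the CCAAT box 129 to 125 bases before the start. The window of Ggps1, which did not pass, held 1 CCAAT box at 215 to 211 bases, and that of Nsdhl held 5, so the number of boxes did not follow the size of the difference for these genes. Cyp51 rose with no CCAAT in its window.

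None of the 4 genes of SREBP2 control passed (limma; 2 higher and 0 lower at an unadjusted p under 0.05), and their differences had both signs. Srebf2, the factor itself, read 2.99, 3.09 and 2.41 with vehicle and 3.36, 3.71 and 3.53 with TBBC. All TBBC arrays were higher, by 0.70 ± 0.21 on average (adjusted p = 0.12), and a second probe above background on all 6 arrays gave 0.56. The remaining Srebf2 probe was kept only through the TBBC arrays, being well above background on 1 of 3 vehicle arrays, and is not read as agreement. Insig1, the INSIG gene that SREBP itself induces, read 5.75, 5.04 and 4.50 and 5.99, 6.79 and 5.79. The groups were just separate, with vehicle replicate 1 at 5.75 and TBBC replicate 3 at 5.79, and the difference of 1.09 ± 0.38 was uncertain (adjusted p = 0.164, 95% interval 0.18 to 2.00). All 4 Insig1 probes gave positive differences, 1.09 to 1.35. Insig2, the INSIG gene that does not depend on SREBP, read 5.22, 5.42 and 5.26 and 5.10, 4.80 and 5.36 with overlapping groups and differed by -0.22 ± 0.16 (adjusted p = 0.456). Scap, the escort, read 2.44, 2.75 and 2.49 and 2.26, 2.13 and 2.38; all TBBC arrays were lower, by -0.30 ± 0.13 (adjusted p = 0.237). Vehicle replicate 3 was the lowest vehicle array for Srebf2 and Insig1, as for the enzymes, and TBBC replicate 2 the highest TBBC array.

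None of the 4 genes of intracellular transport and storage passed (limma; 0 at an unadjusted p under 0.05 in either direction). Stard4, a carrier that moves sterol between membranes and a known SREBP2 target, read 2.77, 3.43 and 2.25 and 3.09, 3.41 and 3.53. On this probe the groups overlapped and the difference was 0.52 ± 0.30 (adjusted p = 0.34). A dimmer second probe of Stard4 read -0.95, -0.42 and -1.10 and -0.26, -0.18 and 0.07. There the groups did not overlap and the difference was 0.70. Npc1, which lifts cholesterol out of lysosomes, was even across animals, at 3.99, 4.08 and 3.96 and 3.75, 3.85 and 3.79. Its TBBC arrays were all slightly lower, by -0.21 ± 0.10 (adjusted p = 0.269), and 6 of its 7 probes gave a negative difference. Npc2, its soluble partner, differed by 0.17 ± 0.17, and Soat2, which esterifies cholesterol for lipoproteins, by -0.22 ± 0.20, both with overlapping groups. With scaling on spike-in controls, which moved the median of all features from -0.06 to 0.16, the differences of Npc1, Soat2, Insig2 and Scarb1 turned slightly positive, the highest at 0.02.

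For uptake, Mylip, the ubiquitin ligase that removes lipoprotein receptors, read -1.89, -2.16 and -1.37 and -1.84, -1.36 and -1.35 and differed by 0.29 ± 0.24 (adjusted p = 0.491). Scarb1, the receptor for high-density lipoprotein, read 3.49, 3.70 and 3.41 and 3.41, 3.27 and 3.32 and differed by -0.20 ± 0.12 (adjusted p = 0.362). Both had overlapping groups, and 0 of the pair were past an unadjusted p of 0.05 in limma.

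The 2 export members had differences below 0, the opposite sign to those of synthesis. The sign was not particular to them: 7 of the 12 members outside synthesis were below 0, and 42.4% of all features were above 0. In the list of LXR and sterol export genes described below, 5 were below 0 and 3 above. Abca1, which loads cholesterol onto apolipoprotein A-I, read 0.84, 1.03 and 0.58 with vehicle and 0.00, 0.26 and 0.28 with TBBC. Lcat, which esterifies cholesterol in plasma particles, read 7.07, 7.06 and 6.78 and 6.52, 6.58 and 6.62. In both, every TBBC array was below every vehicle array, which held for 18.8% of all features. The differences were -0.63 ± 0.16 (adjusted p = 0.0863) and -0.40 ± 0.12 (adjusted p = 0.13), which did not pass. Both were negative in all 20 alternative settings, some of which cannot change a difference, and passed in 1, normexp correction.

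Neighbouring pathways were read from lists of other genes; some listed genes, Srebf1 among them, were not tested. Electron partners and further sterol proteins, such as the reductase that feeds Cyp51 and Sqle, gave 3 of 6 that rose, 0 that fell and 3 that missed the threshold (limma; 5 higher and 0 lower at an unadjusted p under 0.05), with a median of 0.98, where 3.08% of all features were called. With 1 array left out, 0 of these 6 passed in limma (5 at an unadjusted p under 0.05 each time) except without TBBC replicate 1, where 2 did. Por, that reductase, rose by 1.81 ± 0.27 (adjusted p = 0.0282), and the cytochromes Cyb5b and Cyb5a by 1.04 ± 0.14 and 0.75 ± 0.12. Por also serves drug-metabolising cytochromes. Among 6 genes of acetyl-CoA and NADPH supply, 1 rose, the acetyl-CoA synthetase Acss2 by 1.55 ± 0.21 (adjusted p = 0.0236), with a median of 0.38. Of 11 genes of other isoprenoid branches, Srd5a3, of dolichol synthesis, rose by 0.88 ± 0.16 (adjusted p = 0.0451) and the median was 0.08. Acss2 and Srd5a3 passed without TBBC replicate 1 and missed the threshold when any other array was left out. Of 8 genes of SREBP processing and sterol-regulated degradation 0 passed (limma; 4 higher at an unadjusted p under 0.05), with a median of 0.23; the degradation cofactors Ube2g2 and Aup1 differed by -0.12 ± 0.16 and 0.31 ± 0.12.

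Lists of genes that take up, move, export or break down cholesterol had 0 to 2 calls each, where 1.68% of all features rose and 1.4% fell. Of 7 lipoprotein uptake genes 0 passed (limma; 2 higher at an unadjusted p under 0.05; median 0.16), with the receptor Lrp1 at 0.42 ± 0.17 and the clathrin chain Cltc at 0.11 ± 0.10. In sterol handling, 1 of 11 rose, Nceh1, a cholesterol ester hydrolase, by 1.08 ± 0.16 (adjusted p = 0.0279), and the median was -0.03. Nceh1 passed without vehicle replicate 3 and missed the threshold when any other array was left out. Of 8 genes of LXR and sterol export 0 passed (limma; 1 lower at an unadjusted p under 0.05; median -0.03). There Apoa1, the acceptor for Abca1, differed by -0.9996 ± 0.19 (adjusted p = 0.05004), which narrowly missed the threshold and passed without TBBC replicate 3. This list also had 1 call in settings that included normexp correction, array weights and the mean of a gene's probes. It had 0 in others, such as quantile normalization, median centring, spike-in scaling and the replicate block. The sterol receptor Nr1h3 differed by -0.02 ± 0.13. Of 8 genes of bile acid synthesis 2 rose, Slc27a5, which activates bile acids, by 1.29 ± 0.15 and the dehydrogenase Hsd3b7 by 0.58 ± 0.11 (limma; 3 higher and 1 lower at an unadjusted p under 0.05, median 0.41). Slc27a5 passed without vehicle replicate 3 and without TBBC replicate 1, and neither gene passed when another array was left out. In this list Cyp7a1, the rate-limiting enzyme, differed by 2.05 ± 0.72 (adjusted p = 0.167) with overlapping groups. Cyp7b1, a hydroxylase of the alternative route, differed by -1.53 ± 0.50 (adjusted p = 0.145) with every TBBC array lower, as for 18.8% of all features. Neither passed, and both are named because of their values. The fatty acid genes driven by the related factor SREBP1 did not follow the sterol enzymes as a list. Among its 10 tested genes the median was -0.13, with 2 that rose, 1 that fell and 7 that missed the threshold: the elongase Elovl6 rose by 2.65 ± 0.21 and the carboxylase Acacb by 1.73 ± 0.27, and the elongase Elovl5 fell by 0.72 ± 0.12. For Acacb, 1 of the 3 vehicle arrays gave a signal too dim to count as detected, so it entered the test only through the TBBC arrays, where it is high; when a probe had to be detected on each of the 6 arrays, 2 genes of the list passed. With 1 array left out, Elovl6 passed each time, Acacb only without vehicle replicate 3 and Elovl5 never. The difference between these lists was not tested.

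**Figure D4:**
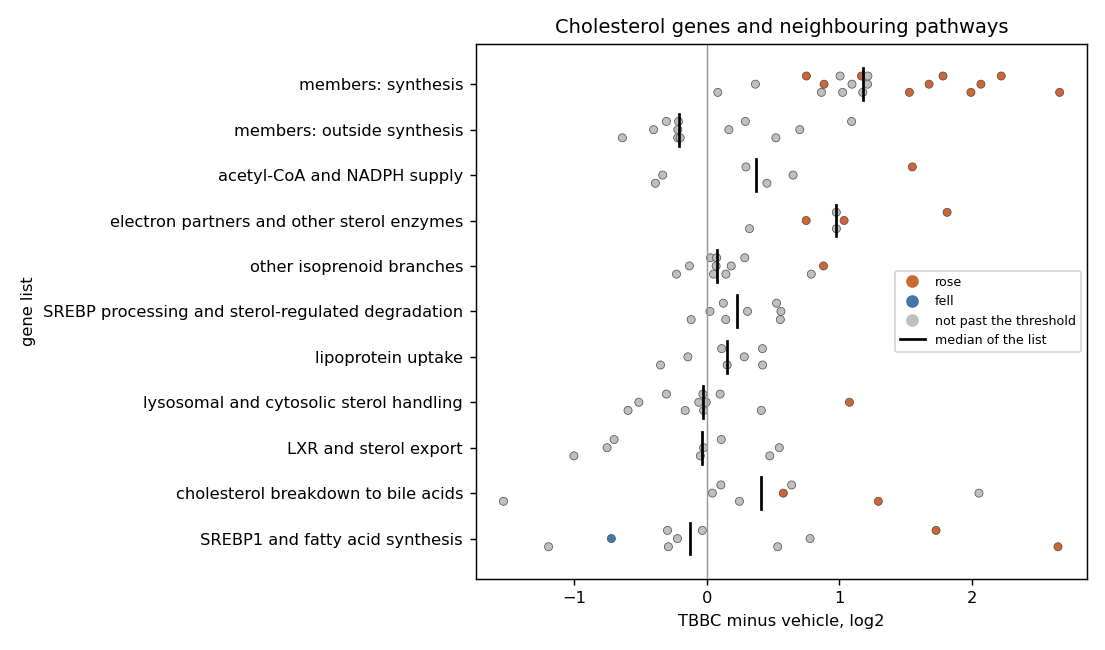
TBBC minus vehicle (log2) for each tested gene, by list; orange points rose, blue fell, grey did not pass, and black bars are list medians. The median is 1.18 for the synthesis members, 0.98 for the electron partners and -0.13 for the SREBP1 list.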

How the data were processed

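The deposited scanner output gives a linear intensity for each spot, already background-subtracted by Agilent Feature Extraction 10.7.1.1 per the file headers. The array design is annotated on rn4 per the file headers, and the flags (other columns) are the scanner software's. The deposited value table, used as an alternative, holds the same intensity times 1 constant per array.

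Processed intensity was taken to log2 and each array's 75th percentile subtracted. Control spots and 25 probes with an outlier flag were left out, and a probe was kept (37222 were) where every array of either group showed it well above background. Unversioned RefSeq accessions named 28206 probes (45.8%) in a GRCr8 gene table. The probe with the highest mean stood for a gene, giving 29326 features (11235 named genes). The test was limma's (version 3.58.1, R 4.3.3, lmFit, eBayes, no covariate, two-sided, Benjamini-Hochberg, 0.05). It was also run on simulated data with independent noise for each feature and no slide effect. That run therefore says nothing on slide or on genes that vary together. P-values set the difference between groups against the spread between animals within groups. Slide and scan differ between the groups and so are part of that difference.

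The members and lists were chosen with earlier results of these data known. All members were named; of each pathway list up to 4 genes past the threshold, or else the 2 brightest; of markers up to 2 of the brightest and any past the threshold, of which the text prints the latter and those undetected. The design's promoter rule asked for TCACNCCAC and found no window, so the windows printed were chosen by CCAAT box instead. Alternatives are in the closing section.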

Additional observations from a re-analysis of the deposited data

How the results depend on the processing

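The difference was positive in all 20 alternative settings for 18 of the 19 synthesis enzymes, and the enzymes' median lay between 0.95 and 1.44. Several settings change only the test or the set of features, such as treat, the replicate block, eBayes with trend and robust, and named genes alone. They leave a member's difference as it was, so its sign there was fixed in advance and is no check. The number of calls moved more. Cholesterol members past the threshold (10, all higher) numbered 17 with normexp correction (2 of them lower), 2 without a filter on dim probes, 3 with the replicate block and 1 with treat against a log2 difference of 0.5, and 0 to 7 when 1 array was left out (highest with TBBC replicate 1 out). The count stayed within 1.5 times of 10 in the settings not named here. All features past the threshold (902; 492 higher and 410 lower) numbered 1803 (956 and 847) with normexp, 194 (124 and 70) without the filter, 211 (133 and 78) with the replicate block, 131 (90 and 41) with treat and 104 to 365 (70 to 221 higher, 34 to 144 lower) without 1 array. Median centring gave 746 higher, spike-in scaling 130 lower and array weights 632 lower, and named genes alone, added after seeing the data, gave 370 (220 and 150). The cause of these moves was not tested. Fits without 1 array also had fewer arrays, and named genes alone fewer features.

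With spike-in scaling the median of all features was 0.16 and Insig2, Npc1, Soat2 and Scarb1 turned to 0.0040, 0.0096, 0.0028 and 0.022. Ggps1 turned to -0.022 with normexp and -0.057 with the mean of its probes, and lay between -0.0012 (without TBBC replicate 1) and 0.207 (without TBBC replicate 3) when 1 array was left out. Of the differences of single members under the alternatives, 515 kept direction and call, 74 lost the call, 24 gained it and 7 changed sign. Direction could not change in the settings that leave a difference as it was. The replicate numbers share only a number: deviations of same-numbered arrays correlated at 0.004, -0.02 and 0.14. A block on slide or scan was not run, because each slide and scan held 1 group, and the mean signal needed for the planned normexp input was replaced by the median signal. Signal over background limited no member, since all were well above background on all arrays; 3 arrays per group limit the precision.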
